A study of Rattus norvegicus with 52 samples.

Results

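Basal cells of the mammary gland were compared between Cdkn1b-/- and Cdkn1b+/+ rats of 9 weeks. The comparison rests on 4 of the 52 samples of the series, chosen by their labels alone: 2 RNA-seq libraries of each genotype from cells sorted as Cd24+ Cd29high. All rats were virgin females, labelled as strain ACI. The mutations were made in outbred Sprague-Dawley rats and crossed onto ACI, homozygous females came from early and late generations of that backcross, and the labels do not say which generation a library is from. What is left of the Sprague-Dawley genome in each library was not tested. The wild type and knockout rats came from crosses of Cdkn1b+/- parents. The knockout is in the germline: every cell of the animal carried it, the pituitary included, and the labels do not say which of the 2 frameshift alleles of the study a library held. The labels also do not say whether a library is 1 animal or a pool, so the spread between libraries may be technical. The p-values printed for basal cells of 9 weeks rest on a spread estimated over all 16 libraries of that age, not on the 4 basal libraries alone. The other populations sorted at 9 weeks were PNA+ and Cd49b+ luminal progenitors, pooled in the model as LP (8 libraries), and mature luminal cells (4 libraries). PNA+ and Cd49b+ libraries of a genotype share numbers and may share animals, yet the model took each as a separate replicate. Standard errors and p-values in LP may therefore be too low. Basal cells of younger rats of both genotypes were available at 6 weeks (5 libraries) and at 4 weeks (5 libraries, used in the fit of ages only).

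Cdkn1b encodes p27, an inhibitor that binds complexes of cyclins with Cdk2 or Cdk4 and holds cells in G1. Basal cells form the outer layer of the mammary epithelium. Most are contractile myoepithelial cells, which carry Krt5, Krt14 and smooth muscle actin, squeeze milk from the alveoli in response to oxytocin, and lay down the basement membrane. Milk proteins are made by the inner luminal layer, where prolactin acts through Jak2 and Stat5.

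The counts assigned to genes lay between 21742845 and 26392587 per basal library. Levels are given below as CPM, the count scaled to a common library size, after TMM normalisation. The sorted cells carried the markers of their label: the summed level of basal keratins and regulators was 21398 to 36150 CPM in the basal libraries against at most 6583 CPM in any luminal library, and contractile genes summed to 20065 to 37448 CPM against at most 4967 CPM. Luminal markers were also present in the basal libraries, at 5606 to 10892 CPM, against at least 17832 CPM in the luminal libraries. The library labelled Cdkn1b+/+ 1 stood apart from the other 3. It had 13415 genes with a count against 14219 to 14911, the lowest sums of luminal, fibroblast, endothelial and immune markers, and the highest sum of S phase genes. Its sums of basal keratins and regulators (21398 CPM) and of contractile genes (20065 CPM) were the lowest too. Only its sum of hormone-sensing luminal genes, 326 CPM, was the highest among the cell type lists. Values without this library, an alternative chosen after seeing the data, are therefore given beside many of the gene lists. The libraries of a genotype were not duplicates of each other (Spearman's rho 0.981 for Cdkn1b-/- and 0.961 for Cdkn1b+/+, across genes).

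**Figure D1:**
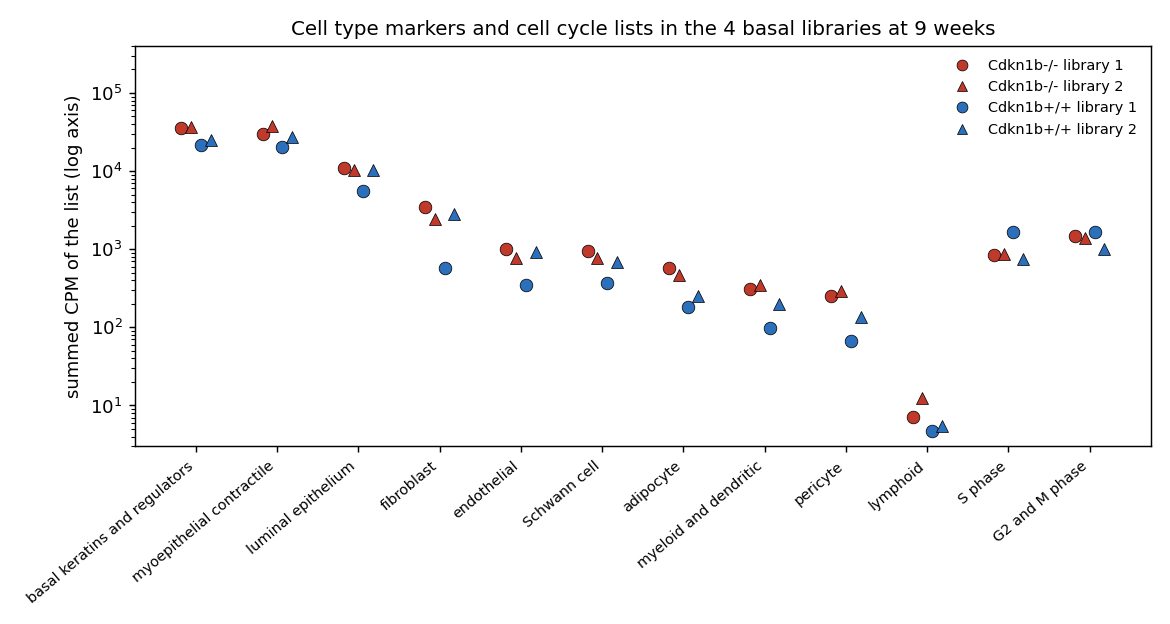
Summed CPM (log axis) of cell type marker lists and cell cycle lists in each of the 4 basal libraries at 9 weeks, with 1 point for each library. The Cdkn1b+/+ library 1 has the lowest sum for every cell type list shown, the basal and contractile ones included, and, at 1670 CPM, the highest S phase sum.

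Cdkn1b itself was measured at 4.61 and 3.81 CPM in the Cdkn1b-/- basal libraries and at 15.7 and 9.70 CPM in the Cdkn1b+/+ libraries. The genotypes did not overlap, and the knockout libraries were the low ones, as their labels say. The log2 fold change was -1.59 (SE 0.37), with an adjusted p of 0.211 in basal cells (edgeR quasi-likelihood test). The alleles are short deletions that leave most of the transcript in place, so the level of the RNA does not by itself check the loss of the protein. In LP the same gene had a log2 fold change of -1.95 (SE 0.26) and passed the test, with an adjusted p of 0.0021.

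Among 12809 genes tested, 7 genes (0.0546%) differed between the genotypes in basal cells with an adjusted p under 0.05, and all 7 rose in Cdkn1b-/- cells. They were Wap, a whey protein of rodent milk; Pigr, the receptor that carries immunoglobulin A across epithelia; RT1-O1, a class I gene of the rat major histocompatibility complex; Cryaa, a small heat shock protein best known from the lens; Cldn1, a tight junction protein; Slc5a9, a sodium-coupled sugar transporter; and Ercc1, a subunit of a DNA repair nuclease. No gene fell by this test, while 1164 genes (9.09%) had an unadjusted p under 0.05, of which 520 (4.06%) were lower and 644 (5.03%) higher. With DESeq2 on the same libraries 88 genes were higher and 82 lower, these 7 among them. With 2 libraries for each genotype, an exact two-sided permutation test could not go below p = 0.333 for a single gene. No gene was called by edgeR without the Cdkn1b+/+ library 1 (841 at an unadjusted p under 0.05) or without the Cdkn1b-/- library 2 (697 at that p), fits in which the lone library is taken to vary like the other groups. All 7 remained higher in those fits, which leaving out a library could hardly change, since their genotypes did not overlap.

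Wap had the most reads of the called genes. It was at 517.6 and 459.9 CPM in the Cdkn1b-/- basal libraries and at 16.6 and 23.9 CPM in the Cdkn1b+/+ libraries. The log2 fold change was 4.59 (SE 0.57) with an adjusted p of 0.0063 (edgeR). Both knockout libraries lay far above both wild type libraries, and Wap was also higher in knockout LP and mature luminal cells, where it reached 2784 CPM in a Cdkn1b-/- PNA+ library.

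Pigr was at 14.3 and 21.1 CPM against 0.757 and 1.57 CPM in wild type basal cells, a log2 fold change of 3.93 (SE 0.47, edgeR adjusted p = 0.0063). Slc5a9 was at 5.92 and 7.71 CPM against 0.955 and 1.88 CPM (log2 fold change 2.27, SE 0.37, edgeR adjusted p = 0.0489). For both genes, as for Wap, the knockout basal level was below the level in each knockout luminal population. Pigr lay between 92.3 and 233 CPM and Slc5a9 between 29.2 and 58.2 CPM in the knockout luminal libraries. Luminal markers summed to 10892 and 10459 CPM in the knockout basal libraries and to 5606 and 10300 CPM in the wild type ones, and 14 of the 18 tested had a fold change above 0, with none called and a median of 0.35 (10 of 18 and 0.04 without the Cdkn1b+/+ library 1). How far luminal RNA in the basal sort contributes to these 3 genes was not tested, and in bulk samples fewer cells of a type and less RNA per cell cannot be told apart.

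Cryaa, Cldn1, RT1-O1 and Ercc1 showed the other arrangement, with the highest levels in knockout basal cells. Cryaa was at 18.1 and 42.5 CPM in Cdkn1b-/- and at 0.889 and 1.02 CPM in Cdkn1b+/+ basal cells (log2 fold change 4.98, SE 0.65, edgeR adjusted p = 0.0093), while no knockout luminal library exceeded 6.09 CPM. Cldn1 was at 19.8 and 34.3 CPM against 0.593 and 1.85 CPM (log2 fold change 4.48, SE 0.61, edgeR adjusted p = 0.0103). On the log scale the knockout libraries of both genes lay closer to each other than to either wild type library.

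RT1-O1 was at 42.7 and 50.4 CPM in knockout and at 6.09 and 10.2 CPM in wild type basal cells, a log2 fold change of 2.51 (SE 0.30, edgeR adjusted p = 0.0063). The wild type basal libraries were thus among the lowest of the 9-week libraries for this gene and the knockout ones the highest. RT1 genes have near-identical copies, and the count of any 1 of them is uncertain where reads could be split. Ercc1 was at 100.5 and 84.3 CPM against 37.6 and 45.3 CPM (log2 fold change 1.16, SE 0.19, edgeR adjusted p = 0.0489). Its neighbour Cd3eap, which the named gene rule does not include and which was looked at because it overlaps the end of Ercc1 in the RefSeq genes of build GRCr8, was at 90.3 and 94.1 CPM against 33.7 and 45.8 CPM (log2 fold change 1.21, adjusted p = 0.185). The library kit does not mark strand, so reads from the overlap cannot be assigned to either gene.

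**Figure D2:**
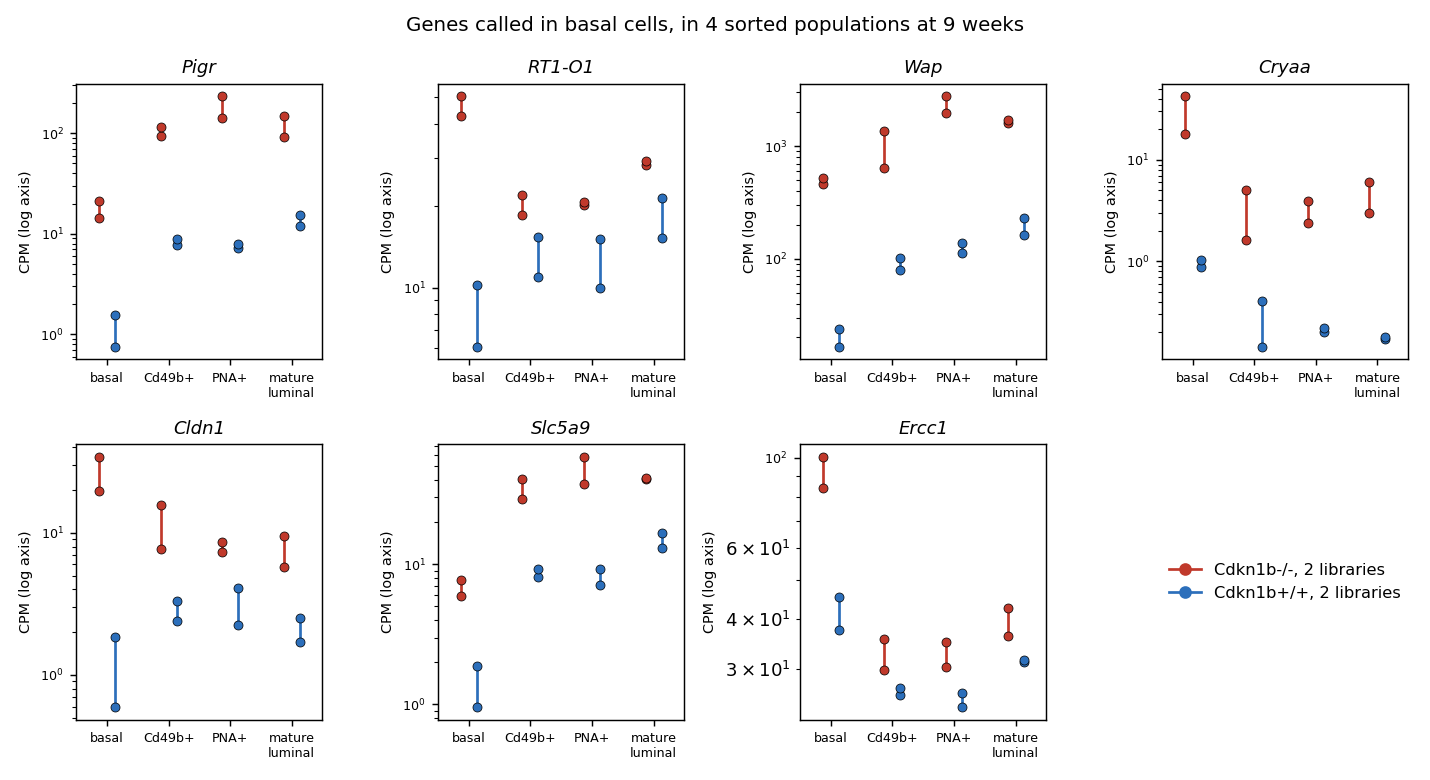
CPM (log axis) of the 7 called genes in each sorted population at 9 weeks, with both libraries of each genotype as points joined by a line. In basal cells the genotypes do not overlap for any of the 7 genes; Pigr, Wap and Slc5a9 are higher in knockout luminal than knockout basal libraries, and the other 4 are highest in knockout basal libraries.

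The milk protein list held 14 tested genes, of which 13 had a fold change above 0 in Cdkn1b-/- basal cells, 5 with an unadjusted p under 0.05 and 1, Wap, called. Over all genes tested 5.03% were higher at that unadjusted p. The median log2 fold change was 1.31, beside 0.00 over all genes tested. Csn2, which encodes beta-casein, was at 11609 and 22495 CPM in the knockout libraries and at 2043 and 184 CPM in the wild type libraries. The genotypes did not overlap, yet on the log scale the gap between the wild type libraries was wider than the gap between the genotypes, and the log2 fold change of 3.94 (SE 1.58) had an adjusted p of 0.464 (edgeR). Csn3, the kappa-casein that keeps casein micelles in solution, was at 8208 and 4115 CPM against 1701 and 2207 CPM, and Csn1s2b at 51.9 and 64.0 CPM against 18.4 and 26.3 CPM. Lpo, the lactoperoxidase of milk, was at 5.12 and 9.47 CPM against 0.692 and 1.10 CPM. None of these 3 passed the test (edgeR adjusted p 0.182 to 0.431). Lalba, the alpha-lactalbumin of the lactose synthase, named after its values were seen, overlapped between genotypes with 2628 and 413 CPM against 563 and 1151 CPM. The genotypes did not overlap in 9 of the 14 genes, where 20.1% of all genes lay higher in both knockout libraries. The median of the list was 1.31 also without the Cdkn1b+/+ library 1, where 12 of the 14 genes were above 0.

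The bases before the starts of 4 of the 5 milk genes with an unadjusted p under 0.05 are shown because these genes were high together. All 14 milk genes tested matched a promoter of the RefSeq table of build GRCr8, and 5 of them, Csn2, Csn1s1, Csn1s2a, Csn1s2b and Glycam1, held the letters TTCNNNGAA, the palindromic form bound by Stat factors, within 250 bases before the start. The same letters were found in 7.67% of all 33469 promoters of that length, in 3 of 24 matched chemokine promoters and in none of the 6 matched promoters of the called genes. In Csn2 the match began 97 bases before the start and in Csn1s2b 100 bases before it. Wap at chr14:85719160-85719409, Csn1s2b at chr14:20545619-20545868 and Csn3 at chr14:20439831-20440080 lie on the minus strand, and Csn2 at chr14:20601574-20601823 on the plus strand. Each sequence is the 250 bases upstream of the start, read in the direction of the gene, with the match in capitals.
Wap: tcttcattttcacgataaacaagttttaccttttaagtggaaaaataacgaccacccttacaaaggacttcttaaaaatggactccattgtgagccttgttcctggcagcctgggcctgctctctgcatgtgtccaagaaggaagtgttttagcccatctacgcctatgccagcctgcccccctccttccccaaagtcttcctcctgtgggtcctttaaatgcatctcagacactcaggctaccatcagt
Csn2: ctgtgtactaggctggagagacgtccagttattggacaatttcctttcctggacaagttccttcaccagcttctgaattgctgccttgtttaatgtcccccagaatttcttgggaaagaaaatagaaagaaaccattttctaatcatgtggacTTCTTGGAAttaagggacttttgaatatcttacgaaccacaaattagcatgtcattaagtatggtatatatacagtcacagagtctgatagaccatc
Csn1s2b: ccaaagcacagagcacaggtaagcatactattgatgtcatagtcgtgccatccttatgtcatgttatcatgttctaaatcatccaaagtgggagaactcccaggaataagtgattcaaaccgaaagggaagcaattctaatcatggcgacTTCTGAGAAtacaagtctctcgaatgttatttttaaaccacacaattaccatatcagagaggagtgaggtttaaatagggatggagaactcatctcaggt
Csn3: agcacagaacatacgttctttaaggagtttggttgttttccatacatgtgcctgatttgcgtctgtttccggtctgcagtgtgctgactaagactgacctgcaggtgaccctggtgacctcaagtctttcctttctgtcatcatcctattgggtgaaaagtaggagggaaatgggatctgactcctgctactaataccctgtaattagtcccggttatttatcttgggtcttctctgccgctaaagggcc
The windows of Wap and Csn3 hold no match, nor does that of Lpo, the gene at that p which is not shown. Csn1s1, Csn1s2a and Glycam1 hold the letters but did not have an unadjusted p under 0.05. A match is a run of letters and not a measured site.

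Regulators of the prolactin pathway were spread more narrowly. Of 14 genes tested, 9 were above 0 and none was called, with a median log2 fold change of 0.26. Without the Cdkn1b+/+ library 1, 7 were above and 7 below 0 with a median of 0.11, and without the Cdkn1b-/- library 2 the median was 0.06. Elf5, a transcription factor of the alveolar lineage, was at 17.6 and 12.0025 CPM against 6.39 and 8.64 CPM, and Cish, a feedback inhibitor that Stat5 induces, at 216 and 366 CPM against 126 and 209 CPM. Both genes had higher values in both knockout libraries. Prlr, the prolactin receptor, was at 2.83 and 3.66 CPM against 3.66 and 6.99 CPM, and its genotypes overlapped.

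**Figure D3:**
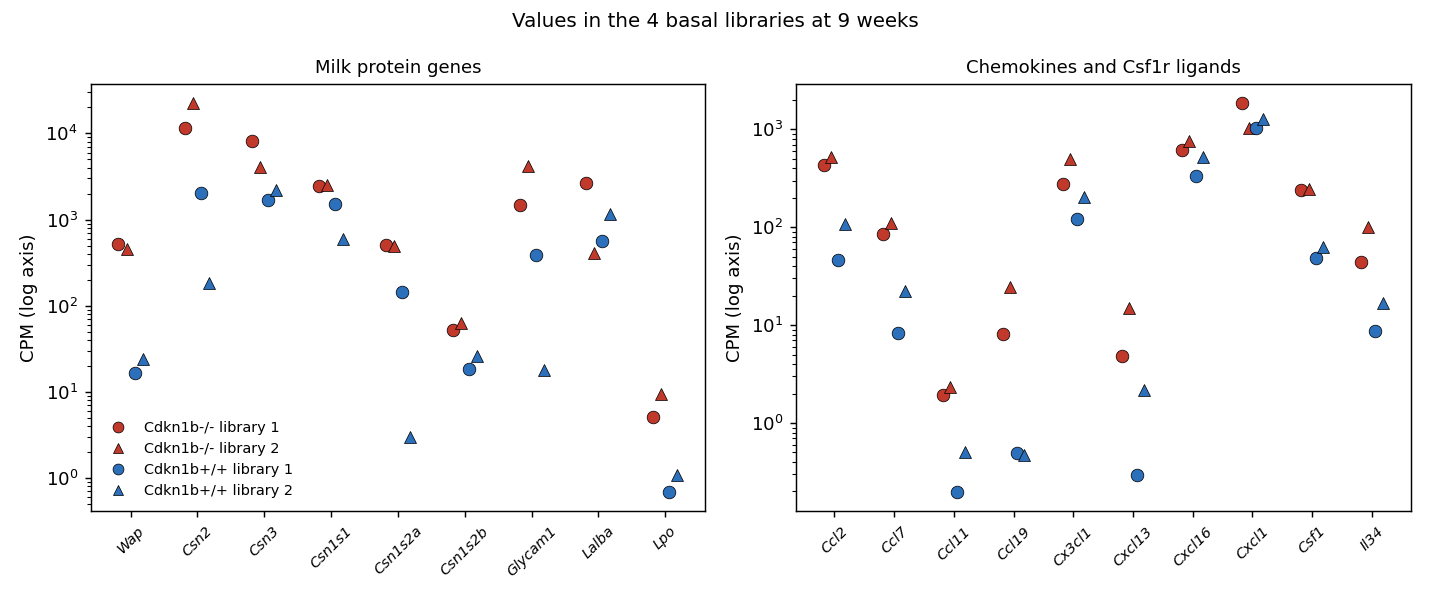
CPM (log axis) of milk protein genes and of chemokines with the Csf1r ligands Csf1 and Il34 in each of the 4 basal libraries at 9 weeks. Points of the genotypes are apart for Wap, Csn2, Ccl2, Ccl7, Ccl19 and Csf1, and overlap for Lalba and Cxcl1.

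Chemokines, the secreted proteins that attract leukocytes, were the group of the study's interest in basal cells. Of 31 tested, 27 had a fold change above 0, 12 had an unadjusted p under 0.05, all of them higher, and none was called. Over all genes tested 5.03% were higher at that unadjusted p. The median log2 fold change was 1.19. Ccl2, the ligand that draws monocytes, was at 435.5 and 521 CPM in knockout and at 46.9 and 107 CPM in wild type basal cells, and Ccl7, its neighbour and relative, at 84.5 and 112 CPM against 8.33 and 22.2 CPM. Ccl19, which attracts dendritic cells and naive T cells, was at 8.04 and 24.7 CPM against 0.494 and 0.471 CPM. In all 3 the knockout libraries lay above the wild type ones, by a log2 fold change of 2.64 (SE 0.67) for Ccl2, 2.69 (SE 0.73) for Ccl7 and 5.07 (SE 0.95) for Ccl19, with adjusted p of 0.261, 0.315 and 0.105 (edgeR). Cxcl1, the member with the highest counts, was at 1859 and 1041 CPM against 1025 and 1269 CPM and overlapped between genotypes. Without the Cdkn1b+/+ library 1 the median was 0.56, with 26 of 31 above 0 and 5 higher at an unadjusted p under 0.05, where 2.54% of all genes were higher and 3.76% lower at that p.

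Ccr7, the receptor of Ccl19, was at 3.17 and 2.63 CPM against 0.560 and 0.236 CPM (edgeR adjusted p = 0.307). Ccl2, Ccl7, Ccl19 and Ccr7 and the 4 genes Tsc2, Smad2, Dock1 and Mpdz were named by the study for basal cells. They were chosen there on these libraries and are not independent evidence of their direction. Tsc2, the tuberin that restrains mTOR, was at 57.1 and 51.8 CPM in knockout and at 75.9 and 96.3 CPM in wild type cells, and Mpdz, a scaffold of tight junctions, at 8.80 and 7.46 CPM against 21.5 and 24.3 CPM. Dock1, an activator of Rac, was at 50.4 and 36.8 CPM against 99.4 and 63.2 CPM, and Smad2, a transducer of TGF-beta, at 29.4 and 31.7 CPM against 44.0 and 40.9 CPM. All 8 had genotypes that did not overlap, where 37% of all genes tested did not overlap. By edgeR all 8 had an unadjusted p under 0.05, where 9.09% of all genes did, and none passed the test (adjusted p from 0.105 to 0.443). The study used another threshold, DESeq2 with a p under 0.05 and a log2 fold change above 1. Here the log2 fold changes of Tsc2, Smad2 and Dock1 were smaller than 1 in size, at -0.66, -0.47 and -0.90. Ccl13, also named there, was not analysed here.

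Cytokines and innate signals had 21 of 25 tested genes above 0, 7 of them with an unadjusted p under 0.05 and none called, with a median log2 fold change of 0.55. At that unadjusted p 5.03% of all genes tested were higher. Both ligands of the macrophage receptor Csf1r were among the highest. Csf1 was at 243 and 246 CPM against 49.1 and 63.5 CPM (log2 fold change 2.12, SE 0.45, edgeR adjusted p = 0.162), and Il34 at 44.7 and 99.8 CPM against 8.76 and 17.0 CPM (log2 fold change 2.49, SE 0.63, edgeR adjusted p = 0.261). Nfkbia, the NF-kappaB inhibitor that NF-kappaB itself induces, was at 2113 and 2953 CPM against 1365 and 1790 CPM. In these 3 genes both knockout libraries exceeded both wild type ones. The median of the list without the Cdkn1b+/+ library 1 was 0.24.

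Markers of immune and stromal cells are given beside the chemokines, since most had fold changes above 0, although none was called. Summed levels of 20 myeloid and dendritic markers were 308 and 348 CPM in knockout and 98.3 and 199 CPM in wild type basal libraries, with 16 of 19 tested above 0. Cd74, the invariant chain of MHC class II, was at 242 and 283 CPM against 83.0 and 152 CPM, while Csf1r was at 2.03 and 1.51 CPM against 0.527 and 0.628 CPM. Lymphoid markers had 9 of 9 tested above 0 but were near 0 CPM throughout, with sums of 4.68 to 12.3 CPM. Pericyte markers, among them the channel subunit Kcnj8 at 25.2 and 21.8 CPM against 2.21 and 6.12 CPM, did not overlap between genotypes in any of the 8 genes tested, where 20.1% of all genes lay higher in both knockout libraries, and their median log2 fold change was 1.56. Fibroblast sums were 3465 and 2402 CPM against 581 and 2852 CPM, and endothelial sums 1014 and 770 CPM against 346 and 919 CPM, so that for these lists the Cdkn1b+/+ library 1 alone was low. Adipocyte markers had 8 of 8 tested above 0 and a median of 1.05, with Fabp4, the fatty acid carrier, at 429 and 314 CPM against 123 and 170 CPM. The sort stained for Cd31 and Cd45, the marks of endothelial cells and leukocytes. The part of such cells in the chemokine values was not tested. Without the Cdkn1b+/+ library 1 the medians were 0.49 for myeloid, 0.10 for fibroblast, 0.13 for endothelial, 1.14 for pericyte and 0.82 for adipocyte markers.

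Schwann cell markers summed to 943 and 778 CPM against 369 and 676 CPM, with 8 of 10 tested above 0 and a median of 0.90 (0.45 without the Cdkn1b+/+ library 1). Erythroid genes were at most 9.37 CPM in sum. MHC class II genes had 7 of 8 tested above 0 and a median of 1.02, against 5 of 8 and 0.53 without the Cdkn1b+/+ library 1. The member with the lowest p was RT1-Ba, at 27.9 and 24.1 CPM against 5.50 and 12.96 CPM. Interferon-stimulated genes were nearer to 0, with 21 of 29 above 0, a median of 0.24 and, without the Cdkn1b+/+ library 1, -0.01. None of the members of these 4 lists was called.

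Genes of mucosal defence, secreted by epithelia onto their surfaces, had 13 of 15 tested above 0, 6 of them at an unadjusted p under 0.05, with a median log2 fold change of 1.59 (0.77 without the Cdkn1b+/+ library 1). At that unadjusted p 5.03% of all genes tested were higher. Pigr was the member that passed the test. C3, the central complement component, was at 41.5 and 190.1 CPM against 7.31 and 5.65 CPM, with a log2 fold change of 4.16 (SE 1.05, edgeR adjusted p = 0.261). Lcn2, a siderophore binder, was at 1263 and 494 CPM against 19.8 and 378 CPM, so the Cdkn1b+/+ library 1 alone was far below the rest. Gp2, a glycoprotein that binds bacteria, went the other way, with 1.40 and 1.56 CPM in knockout and 9.81 and 32.7 CPM in wild type basal cells. Its log2 fold change of -3.84 (SE 0.70) had the second lowest adjusted p of the genes with lower values named here, 0.101 (edgeR). In LP Gp2 fell by 4.63 on the log2 scale (SE 0.50, edgeR adjusted p = 0.0004).

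Further genes with large differences were given by rule, as values. With higher values in knockout basal cells these included Adora2a, an adenosine receptor, at 21.0 and 17.6 CPM against 1.81 and 2.71 CPM, and Aqp3, a water and glycerol channel, at 35.02 and 15.7 CPM against 3.19 and 3.49 CPM. Bai1, Ass1, Rem1 and Ramp1 were also among them, with log2 fold changes between 2.79 and 3.59. With lower values the largest after Gp2 was Wif1, a secreted inhibitor of Wnt ligands, at 9.94 and 6.00 CPM against 79.4 and 42.7 CPM, a log2 fold change of -2.94 (SE 0.81, edgeR adjusted p = 0.316). Dmd, which encodes dystrophin, was at 5.84 and 4.15 CPM against 18.9 and 8.72 CPM, and Ocrl, a phosphoinositide phosphatase, at 14.8 and 12.2 CPM against 34.3 and 31.8 CPM (edgeR adjusted p = 0.0891). Tdrp, Slc38a4, Epgn, Slc36a4, Shc1 and Mfap3l had log2 fold changes between -2.10 and -1.29. The genotypes do not overlap in these genes because the rule asked for it, and none of them passed the test.

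The cell cycle lists turned on a single library. Of 37 S phase genes tested, 34 had lower values in Cdkn1b-/- basal cells, 2 of them with an unadjusted p under 0.05, none was called, and the median log2 fold change was -0.74. Over all genes tested 4.06% were lower at that unadjusted p. Summed levels were 851 and 865 CPM in knockout and 1670 and 744 CPM in wild type libraries, so the Cdkn1b+/+ library 1 was high and library 2 was below both knockout libraries. Pcna, the sliding clamp of DNA replication, was at 226 and 204 CPM against 342 and 212 CPM. Without the Cdkn1b+/+ library 1, 28 of the 37 genes were above 0 and the median was 0.44. Of 48 G2 and M phase genes, 21 were above 0 with a median of -0.08, and without that library 42 were above 0, with a median of 1.26. Fam64a, a regulator of the exit from mitosis, was at 4.23 and 4.73 CPM against 2.96 and 0.314 CPM. The direction of both lists thus depended on which wild type library was used.

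Genes that p27 acts with were not called. The target kinase Cdk2 was at 40.3 and 47.5 CPM in knockout and 74.4 and 59.6 CPM in wild type cells, and its partner Ccne1, cyclin E1, at 3.72 and 4.64 CPM against 12.4 and 7.62 CPM. Of 21 tested G1 cyclins, kinases and E2F factors, 15 had lower values, 3 with an unadjusted p under 0.05, with a median of -0.53 (0.07 without the Cdkn1b+/+ library 1). At that unadjusted p 4.06% of all genes tested were lower. The related inhibitor Cdkn1c, or p57, was at 52.2 and 94.4 CPM against 30.7 and 43.9 CPM, and Cdkn1a, or p21, at 72.8 and 63.0 CPM against 120.0 and 45.2 CPM with overlapping groups. The inhibitor list took the CIP/KIP and INK4 families together with Cdkn3, a phosphatase that belongs to neither. Of its 7 tested genes 4 were above 0, with a median of 0.53. Cdkn3 was among those 4, with a log2 fold change of 1.17, so count and median are not those of the families alone. None of the members of either list was called.

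**Figure D4:**
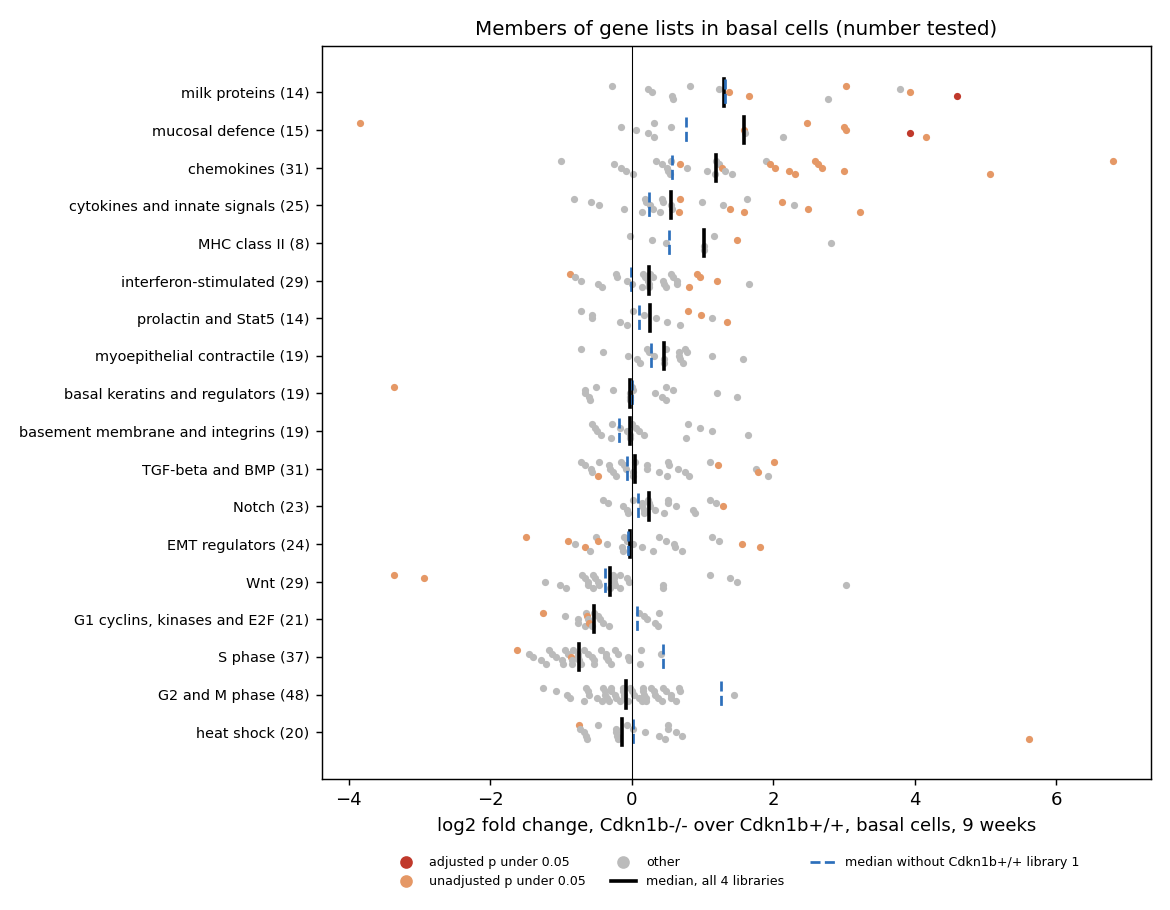
Log2 fold change of each tested member of 18 gene lists in basal cells at 9 weeks, with the median over all 4 libraries as a solid bar and without the Cdkn1b+/+ library 1 as a dashed bar. Milk, mucosal defence and chemokine genes lie mostly above 0 under both; the S phase median goes from -0.74 to 0.44 and the G2 and M phase median from -0.08 to 1.26.

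Among the genes that define basal cells none was called. Basal keratins and regulators had 9 of 19 tested above 0, and a median log2 fold change of -0.03, while their summed level, to which Krt17 adds most, was 35650 and 36150 CPM in knockout and 21398 and 25247 CPM in wild type libraries. Krt17 was at 12452 and 13244 CPM against 4299 and 6807 CPM, and Procr, a surface receptor of basal progenitors, at 607 and 439 CPM against 129 and 244 CPM. Lgr5, a receptor of R-spondins in Wnt signalling, was at 0.169 and 0.195 CPM against 3.42 and 0.393 CPM, with the Cdkn1b+/+ library 1 alone high. Contractile genes had 16 of 19 above 0 with a median of 0.46 (14 of 19 and 0.27 without the Cdkn1b+/+ library 1), and 12 of 19 lay higher in both knockout libraries, where 20.1% of all genes did, among them Tagln at 5972 and 7678 CPM against 2908 and 5643 CPM and Des, the muscle intermediate filament desmin, at 211 and 192 CPM against 39.5 and 96.5 CPM. Basement membrane and integrin genes had 9 of 19 above 0 and a median of -0.03.

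Signalling lists were mixed. Of 29 Wnt genes tested, 23 had lower values in knockout basal cells, with a median of -0.30 (-0.38 without the Cdkn1b+/+ library 1), and 2, Wif1 and Lgr5, had an unadjusted p under 0.05. Over all genes tested 4.06% were lower at that unadjusted p. Axin2, a feedback target of Wnt, was at 3.51 and 3.03 CPM against 5.50 and 4.83 CPM. TGF-beta and BMP genes had a median of 0.04, with high values for the inhibitory Smad7 at 231 and 156 CPM against 81.5 and 30.2 CPM, and for Tgfb1 at 19.4 and 14.4 CPM against 7.28 and 7.18 CPM. Notch genes had 18 of 23 above 0 and a median of 0.24 (14 of 23 and 0.09 without the Cdkn1b+/+ library 1), the lowest p being that of Notch3 at 99.4 and 132 CPM against 33.2 and 61.6 CPM, which is also a pericyte marker. EMT regulators had 12 of 24 above 0 and a median of -0.03, and heat shock genes 9 of 20 and -0.14. The study reported EMT regulation and Notch among the top lowered pathways in basal cells, through Tsc2, Smad2, Dock1 and Mpdz. Those 4 genes belong to the EMT list and are its 4 members lower at an unadjusted p under 0.05, while 2 were higher. The study's pathway analysis used other gene sets and was not repeated, so these medians do not test it. Immediate early genes, which cell dissociation is known to raise, had 12 of 23 above 0 and a median of 0.02. Chemokine receptors had 7 of 8 above 0 and a median of 0.37, against 4 of 8 and 0.04 without the Cdkn1b+/+ library 1, and hormone-sensing luminal genes 9 of 11 below 0 and a median of -0.46 (-0.27 without that library). No member of these 8 lists was called.

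Whether the genotype acted otherwise on basal than on luminal cells was tested as a difference of fold changes. Against LP, no gene passed (926 at an unadjusted p under 0.05; DESeq2 called 74), and against mature luminal cells no gene passed (562 at an unadjusted p under 0.05; DESeq2 called 5). Libraries of the same number and genotype deviated together across populations (Pearson's r 0.26 to 0.50 across genes, basal against each luminal population). With the library number as a block within each genotype, chosen after seeing the data, 53 genes (0.414%) passed against LP and 3 (0.0234%) against mature luminal cells. Of the 53, 41 had opposite signs in basal cells and LP, and 17 had an unadjusted p under 0.05 in basal cells. The difference was above 0 for 29 genes and below 0 for 24, among the latter Sult5a1 at -3.07 (SE 0.32), a sulfotransferase named after its values were seen. RT1-O1 passed in both, with a log2 fold change higher in basal cells by 1.87 (SE 0.19) than in LP and by 1.88 than in mature luminal cells, and edgeR adjusted p of 0.0031 and 0.0211. Its fold change in LP was 0.66 (SE 0.20, edgeR adjusted p = 0.0964). Cldn1 was just outside, with a difference against LP of 2.80 (SE 0.54, edgeR adjusted p = 0.0501), as were Ccl7 and Ccl2, with differences of 3.15 (SE 0.67) and 3.13 (SE 0.68) and edgeR adjusted p of 0.0606 and 0.0607. In LP, Ccl2 had a log2 fold change of -0.39 (SE 0.45). In the same fit Wap, Pigr and Slc5a9 had differences against LP of 0.67 (SE 0.58), -0.27 (SE 0.50) and -0.01 (SE 0.58), and all 3 passed the test within LP. Of the 7 basal genes, Cryaa and Cldn1 were also called in LP, and Pigr, Wap and Cryaa in mature luminal cells. The share of all genes called in those populations is not given here, so these calls have no background to be read against. The populations were fitted together, and basal and luminal libraries of a genotype share a number and may share animals. The same holds for the PNA+ and Cd49b+ libraries within LP.

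At 6 weeks the same comparison used 2 Cdkn1b-/- and 3 Cdkn1b+/+ basal libraries, fitted with the other ages. Cdkn1b itself overlapped there, at 9.86 to 11.7 CPM in knockout and 3.09 to 22.7 CPM in wild type libraries (log2 fold change -0.52, SE 0.71). At least 1 wild type library thus lay below both knockout libraries, and the level of Cdkn1b does not check the labels at this age. The depth of the 6-week libraries is not given here. The titles of the 6-week libraries carry a further number, which the labels do not explain and which differs for 1 of the Cdkn1b-/- libraries. None of the 7 genes was called at 6 weeks, where 4.67% of 12500 genes were. Wap was at most 1.24 CPM in any 6-week basal library, and Pigr had no count in any of the 5. RT1-O1 lay between 12.9 and 13.3 CPM in the knockout and between 7.68 and 17.8 CPM in the wild type libraries of 6 weeks, so its genotypes overlapped there. Cldn1 had the opposite direction at 6 weeks, with 0.526 to 2.38 CPM in knockout and 0 to 46.7 CPM in wild type libraries (log2 fold change -3.69, SE 1.63, edgeR adjusted p = 0.194), and its groups overlapped. Slc5a9 and Cryaa were at most at 0.854 CPM in the 6-week libraries, and Ercc1 overlapped between genotypes at 47.2 to 135 CPM. The difference of the genotype effect between 9 and 6 weeks did not pass the test for any of the other 6 genes (edgeR adjusted p 0.213 to 0.951), and Pigr, without counts at 6 weeks, gives no such difference. The ages share no library.

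Wif1 was among the 9 genes (0.072% of 12500) whose genotype effect differed between the ages, and the only gene named above that did. On the scale of the fit of all ages it lay between 6.44 and 10.9 CPM in knockout and between 48.2 and 89.9 CPM in wild type basal cells at 9 weeks. At 6 weeks the order was reversed, with 58.9 to 65.4 CPM in knockout and 7.09 to 21.4 CPM in wild type libraries, a log2 fold change of 2.29 (SE 0.57, edgeR adjusted p = 0.0385). At 4 weeks the genotypes overlapped, with 42.2 to 117 CPM in knockout and 45.5 to 95.8 CPM in wild type libraries. Among the wild type libraries those of 6 weeks were thus the lowest. At 9 and at 6 weeks the genotypes did not overlap, in opposite directions, and the difference was -5.29 on the log2 scale (SE 0.88, edgeR adjusted p = 0.0455). This call was lost without any 1 of the 4 libraries of 9 weeks, either Cdkn1b-/- library or the Cdkn1b+/+ library 1 of 6 weeks, and with 6 and 9 weeks alone (edgeR adjusted p = 0.195). The direction was kept in each, which the lack of overlap at both ages nearly fixes. Csf1 went the opposite way, with -2.59 (SE 0.67, edgeR adjusted p = 0.0445) at 6 weeks and a difference of 4.65 (SE 0.96) that did not pass (edgeR adjusted p = 0.0862).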

How the data were processed

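RNA of sorted basal cells was amplified with a low-input kit that does not mark strand and sequenced as single 75 base reads. The authors aligned reads with STAR 2.5.1b to rn6 and counted them per refGene gene with htseq-count, and the deposited values are raw counts. Rows that name no gene (58.5% to 61.7% of the reads in the basal libraries, mostly reads with several alignments) were left out of library sizes and tests. Counts were normalised by TMM in edgeR 4.0.16 (R 4.3.3). A quasi-likelihood model with 6 groups, genotype by basal, mature luminal and LP, was fitted to the 16 libraries of 9 weeks after filterByExpr, and genotypes were compared within basal cells, with Benjamini-Hochberg adjustment over 12809 of 17356 genes. Differences of fold changes were contrasts of this model, or, for age, of a model of 14 basal libraries at 4, 6 and 9 weeks. Alternatives included DESeq2 1.42.0, other filters, a replicate block and leaving out each library. The scripts were tested on simulated data. CPM in the text are TMM-scaled, and levels from the 2 models are on separate scales.

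Genes named are Cdkn1b, the genes the study names, all called genes, at most 12 genes each way, taken by size of fold change (mean log2 CPM above 2, unadjusted p under 0.01, genotypes apart), and members of each list with the smallest p or the highest level. Some genes that meet this rule are not reported here. The comparison and the gene lists were chosen with earlier results of these data known. Same-numbered basal libraries of the genotypes did not deviate together (Pearson's r 0.0014 across genes), so the numbers were not taken to pair them. Promoter sequences are from RefSeq, build GRCr8, and were not placed on rn6.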

Additional observations from a re-analysis of the deposited data

Results flagged for a closer look

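The genotype effect in basal cells differed between 9 and 6 weeks for 9 genes by the contrast of both effects in 1 model (edgeR's quasi-likelihood test, Benjamini-Hochberg adjustment over 12500 genes). DESeq2 called 404 genes. The level of Cdkn1b itself overlapped between the genotypes at 6 weeks, so it does not check the labels of those libraries. Levels below are ranges over libraries in CPM, on the scale of the fit of all ages.

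In 4 genes the wild type libraries of 6 weeks were high and the other groups low. Gclm, a subunit of the enzyme that starts glutathione synthesis, lay between 882 and 1406 CPM in wild type and between 35.2 and 56.7 CPM in knockout cells at 6 weeks, and between 24.3 and 37.4 CPM in both genotypes at 9 weeks (adjusted p = 0.0045). Akr1b8, an aldo-keto reductase, lay between 218 and 420 CPM in wild type cells at 6 weeks and at most at 7.28 CPM elsewhere at those ages (adjusted p = 0.0146). Adm, the vasodilator adrenomedullin, lay between 1746 and 2001 CPM there, against 76.3 to 161 CPM in the other groups (adjusted p = 0.0279). Agpat2, an enzyme of triglyceride synthesis, lay between 135 and 236 CPM there, against 7.34 to 15.9 CPM (adjusted p = 0.0455). The 9-week basal values of these genes overlapped between genotypes.

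Wif1 and Hibadh were lower in knockout cells at 9 weeks and higher at 6 weeks, without overlap at either age. Hibadh, a mitochondrial enzyme of valine breakdown, lay between 104 and 117 CPM in knockout and between 161 and 220 CPM in wild type cells at 9 weeks, and between 159 and 171 CPM against 40.1 to 46.4 CPM at 6 weeks (difference -2.69 on the log2 scale, SE 0.45, adjusted p = 0.0455). Wif1 had an adjusted p of 0.0455.

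Zc4h2, Rxrg and Klhl36 had no count in any wild type library of 6 weeks, so no fold is given. Zc4h2 was at 4.57 to 8.61 CPM in knockout cells at 6 weeks and at 3.94 to 8.24 CPM in both genotypes at 9 weeks (adjusted p = 0.0279). Rxrg, a retinoid X receptor, was at 16.2 to 24.0 CPM and at 0.522 to 3.29 CPM (adjusted p = 0.0455), and Klhl36 at 1.88 to 4.86 CPM and at 9.08 to 11.1 CPM (adjusted p = 0.0455).

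The count of 9 moved when any of the 9 libraries of these ages was left out. It was 0 without the Cdkn1b+/+ library 1 or 2 of 9 weeks or the Cdkn1b-/- library 2 of 6 weeks (1130, 1105 and 907 at an unadjusted p under 0.05), 1 without the Cdkn1b-/- library 1 of either age, 4 without the Cdkn1b-/- library 2 of 9 weeks, and 17, 208 and 135 without the Cdkn1b+/+ library 1, 2 and 3 of 6 weeks.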

How the results depend on the processing

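The 7 genes kept their direction in every alternative that tested them. Their genotypes did not overlap and the counts were the same, so this was nearly fixed beforehand and adds no support. DESeq2 called 170 genes, the replicate block 14 (the 7 among them), the 4 basal libraries alone 1 with edgeR and 176 with DESeq2, and leaving out 1 library gave 0 to 9. Without the Cdkn1b+/+ library 2 the median of all genes moved to 0.14 on the log2 scale. For the difference between basal cells and LP, DESeq2 called 74 genes and the replicate block within each genotype 53, and for that against mature luminal cells 5 and 3. The difference between 9 and 6 weeks was called for 74 genes without a filter on low counts, for 404 with DESeq2, for 3 from 6 and 9 weeks alone, and for 0 to 208 with 1 library left out. The cause was not tested. Of the values of single genes under the alternatives, 904 stayed on their side of the threshold, 60 passed it, 91 no longer did and 0 changed direction. Most of these genes were picked for a call, a large difference or an unadjusted p under 0.05 in the same libraries. That none changed direction follows largely from this choice. Of the list medians under the alternatives, 344 moved by less than the spread between libraries and 39 by more. With 2 libraries per genotype, a p that misses the threshold does not show that a gene did not differ. Intervals for single libraries are not given, since reads of an amplified library are not independent molecules.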
